A study of Homo sapiens with 6 samples.

Results

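The genes described here make fatty acids, change their length and saturation, build them into triglyceride, and form or empty the lipid droplets that store it. They are the 50 genes of a named list whose symbols were matched in a table of 20388 gene symbols, and all 50 were found. RNA sequencing of the liver cancer cell line MHCC-97H, a human line kept in culture and derived from hepatocellular carcinoma, gave the levels in 6 libraries. The unit is FPKM, which divides a gene's fragments by its length in kilobases and by the fragments mapped in all. Cells of 3 libraries had received GK921 at 2 µM for 24 h, a compound that blocks the crosslinking enzyme transglutaminase 2 (gene TGM2). Those of the other 3 had received only its solvent, DMSO, over the same 24 h. Both groups carry the wild-type genotype label and grew in DMEM with serum, so lipids of the serum were on offer to all of them. The study asked which transcripts differ in liver cancer cells once this inhibitor is added. Whether the 3 libraries of a group stem from different cultures is not stated in the sources used here, so a p-value covers the spread among libraries and that spread may be technical.

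In liver cells, citrate leaves the mitochondrion, is split to acetyl-CoA in the cytosol, and is carboxylated and condensed to palmitate. Desaturases and elongases shape the chain, acyl-CoA synthetases activate it, and acyltransferases attach it to glycerol until triglyceride buds from the endoplasmic reticulum into a droplet coated with perilipins. Lipases then release the fatty acids again. Transcription of the synthetic genes is driven mainly by SREBP-1, the product of SREBF1, which responds to insulin and sterols, and by ChREBP, the product of MLXIPL, which responds to glucose.

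The cells matched their label only in part. HNF4A, a transcription factor of the hepatocyte, and the epithelial keratins KRT8 and KRT18 averaged 8.57 FPKM or more in both groups, and were among the 4 of 11 liver markers that reached a mean of 1 FPKM. ALB, AFP, APOA1, APOB, TTR and SERPINA1 averaged under 1 FPKM in each group, and GPC3 was listed at 0. Among markers of other cells, the collagen genes COL1A1, COL1A2 and COL3A1, the endothelial gene CDH5 and the leukocyte genes PTPRC and CD3E were at or near 0. Others of these lists were present: the leukocyte marker CD68 averaged 99.7 FPKM after GK921 and 109 FPKM in DMSO, and the endothelial marker PECAM1 averaged 3.94 FPKM after GK921 and 3.83 FPKM in DMSO, neither called. KDR, also endothelial, averaged 2.69 FPKM after GK921 and 1.62 FPKM in DMSO and was called higher (limma adjusted p = 0.00582). The summed level of the 7 fibroblast markers was 22.6 to 28.8 FPKM after GK921 and 48.5 to 52.6 FPKM in DMSO, nearly all of it LUM and DCN. The part of these cells or genes in the results below was not tested. Relative depth, read from the steps between low FPKM values, was 0.768, 0.771 and 0.864 in the GK921 libraries and 1, 0.943 and 0.871 in the DMSO libraries, against the deepest one. Absolute depth is unknown.

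Listed genes that make fatty acids and triglyceride mostly fell after GK921, while the tested lipases of the list rose and droplet genes moved in both directions. Of the 50 genes, 42 reached a mean of 1 FPKM over the 6 libraries and were tested. At a limma adjusted p under 0.05 over all 11573 tested genes, 24 of the 42 were lower (57.1%) and 12 higher (28.6%), and 6 were not called. The same test called 29.2% of all tested genes lower and 46.8% higher, 75.9% in either direction, so the balance of the lipid genes ran against that of the whole table. A change of at least 1 log2 unit on the log2(FPKM + 1) scale was reached by 5 genes in each direction, 11.9% of those tested, where 6.24% of all tested genes were that far lower and 9.87% that far higher. Non-overlapping groups were found for 37 of the 42 genes (88.1%), 24 lower and 13 higher, against 78% of all tested genes, 30% lower and 48% higher. These are values relative to each library's total, so fewer cells and less RNA per cell cannot be told apart.

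The median log2 change was -0.25 over the 42 genes and 0.16 over all tested genes. With libraries rescaled by median ratios the median over all tested genes was 0.0070, as that scaling sets it near 0 by design. Whether the 0.16 comes from library scaling or from a true excess of rises was not tested. Under that scaling 28 of the lipid genes were lower and 10 higher. Rises made up 49.7% of the calls over all tested genes, against 61.6% on the deposited scale. The near-even share also follows from the scaling. Subtracting 0.16 from a log2 change below gives it relative to the median gene, and 29 of the 42 genes lay below that gene. All values below are on the deposited scale, with SD over n = 3 libraries per group and SE on log2 changes. The 8 untested genes were SCD5, ELOVL2 and FABP1, listed at 0 in every library, and ELOVL4, MLXIPL, PLIN1, PLIN5 and LIPE, whose group means stayed under 1 FPKM.

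**Figure D1:**
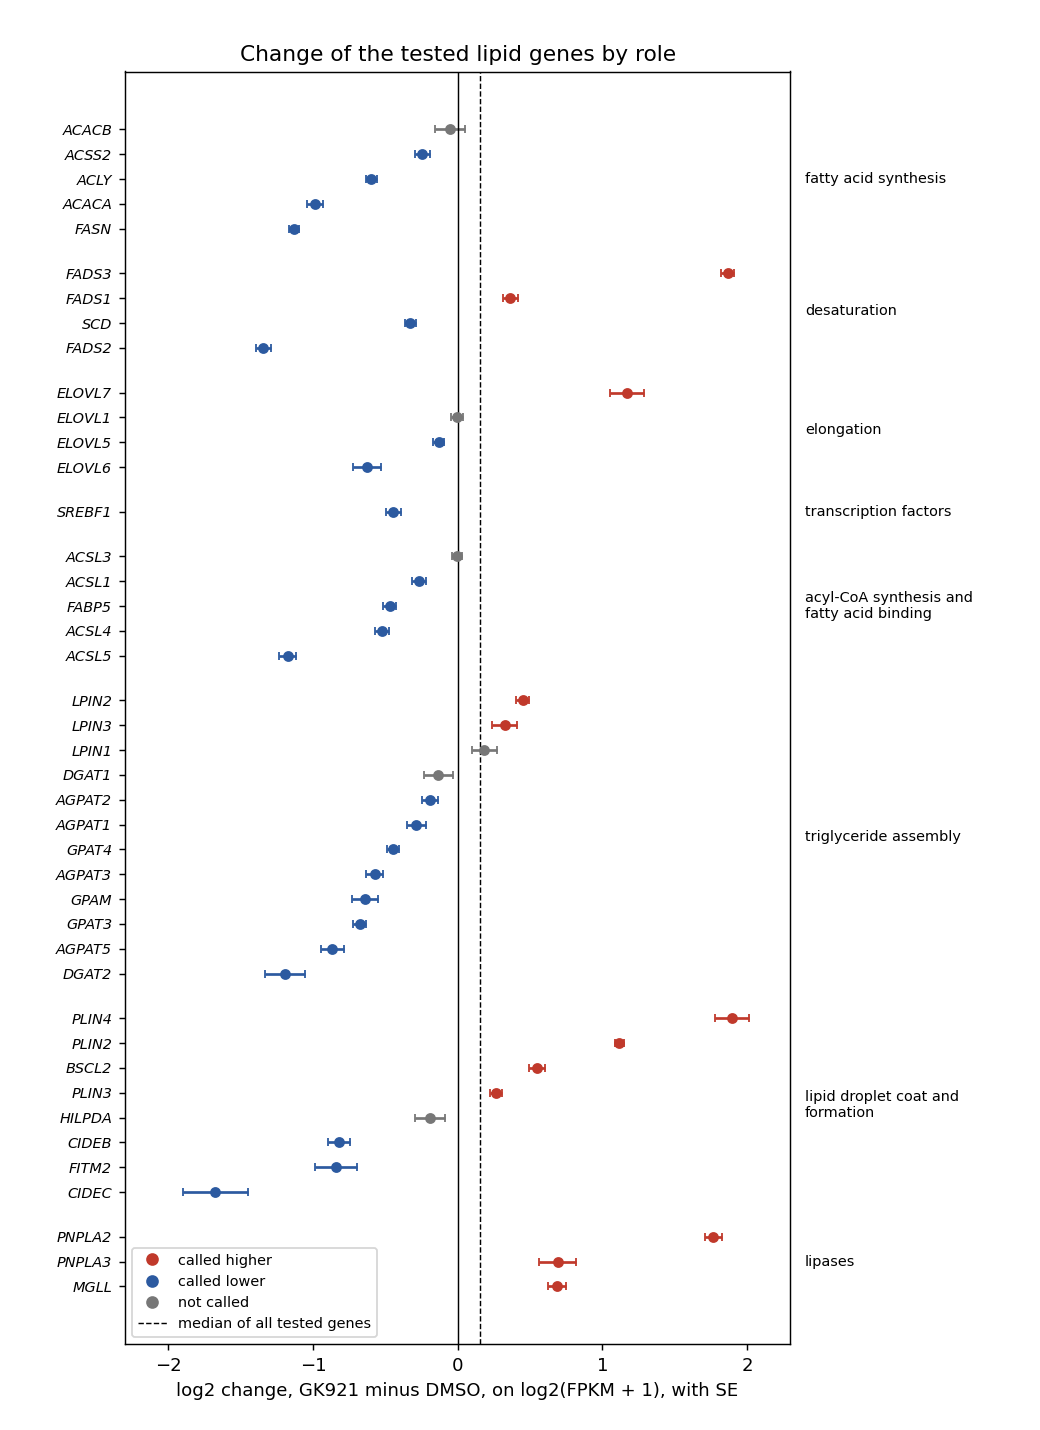
Log2 change of each of the 42 tested genes (GK921 minus DMSO, on the log2(FPKM + 1) scale, bars are SE), grouped by role, with the dashed line at the median of all tested genes (0.16). Fatty acid synthesis and most acyltransferases lie to the left, the 3 tested lipases to the right, and desaturases and droplet genes on both sides.

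Promoters were read for the genes with the largest changes, to show what stands just before genes that moved together or apart. The RefSeq table (GRCh38.p14) held 40 of the 50 genes, AGPAT5, DGAT1, DGAT2, FABP5, FASN, GPAT4, HILPDA, LPIN3, MGLL and PNPLA3 excepted, and 16 of the 40 had more than 1 start. Of the genes that changed by at least 1 log2 unit, 5 are shown. They were chosen because the 250 bases before a start hold a match to a motif searched other than CCACG. FADS2 and ACSL5, with 2 starts each, held none, nor did the second start of CIDEC, and ELOVL7 held only CCACG. Capitals mark matches on either strand to a sterol response element (TCACNCCAC, a site of SREBP), an E-box (CACGTG, a site of MYC, USF and related factors), a CCAAT box (CCAAT, a site of NF-Y), a C/EBP-ATF element (TTGCATCA, a site of CHOP with ATF4) or the CCACG end of an unfolded protein element (a site of ATF6 and XBP1). CCACG overlaps an E-box that has a C before it or a G after it.
PLIN2 (chr9:19127493-19127742, minus strand): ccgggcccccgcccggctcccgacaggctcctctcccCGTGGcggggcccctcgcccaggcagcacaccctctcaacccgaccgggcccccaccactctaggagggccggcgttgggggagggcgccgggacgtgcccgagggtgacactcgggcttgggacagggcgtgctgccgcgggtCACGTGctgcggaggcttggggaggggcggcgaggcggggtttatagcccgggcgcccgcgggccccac
PLIN4 (chr19:4518487-4518736, minus strand): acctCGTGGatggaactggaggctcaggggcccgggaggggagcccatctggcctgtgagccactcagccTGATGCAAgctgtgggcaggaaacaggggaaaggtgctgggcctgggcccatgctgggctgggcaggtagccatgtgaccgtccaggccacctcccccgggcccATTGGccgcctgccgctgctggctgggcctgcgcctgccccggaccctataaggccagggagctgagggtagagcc
FADS3 (chr11:61891546-61891795, minus strand): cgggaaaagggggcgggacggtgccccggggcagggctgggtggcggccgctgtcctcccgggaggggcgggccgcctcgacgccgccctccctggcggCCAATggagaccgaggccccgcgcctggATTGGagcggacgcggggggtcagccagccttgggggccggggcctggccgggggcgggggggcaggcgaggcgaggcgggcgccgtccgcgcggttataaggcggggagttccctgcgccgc
PNPLA2 (chr11:818664-818913, plus strand): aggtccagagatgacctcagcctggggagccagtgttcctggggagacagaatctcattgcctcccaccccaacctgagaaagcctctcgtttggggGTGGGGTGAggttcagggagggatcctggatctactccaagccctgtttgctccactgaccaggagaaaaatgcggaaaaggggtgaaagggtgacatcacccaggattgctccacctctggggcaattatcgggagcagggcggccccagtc
CIDEC (chr3:9878813-9879062, minus strand): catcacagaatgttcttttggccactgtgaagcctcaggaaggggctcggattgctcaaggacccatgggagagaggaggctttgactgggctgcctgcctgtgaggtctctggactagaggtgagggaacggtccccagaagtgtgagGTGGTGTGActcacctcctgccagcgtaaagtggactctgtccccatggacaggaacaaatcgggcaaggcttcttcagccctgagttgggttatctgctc

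The sterol response element stood before 3 of the 40 genes (7.5%), against 1.09% of the 27305 genes in the table and 1.17% of the tested genes in it. These were PNPLA2, which rose, and CIDEC and ACSL1, which fell, so holding it did not go with 1 direction. A gene was counted if any of its starts held a match, which for ACSL1 was 1 of 5. The E-box stood before 4 of the 40, namely PLIN2, LPIN2, ELOVL5 and ELOVL4, or 10%, which lies between the 7.73% of the table and the 11.2% of tested genes. PLIN4 was the 1 gene of the 40 with the C/EBP-ATF element, which 0.967% of the table and 0.608% of tested genes held. The CCAAT box stood before 19 of the 40 (47.5%, against 37% of the table and 41.8% of tested genes), among them ACACA, ACLY, SCD and ACSS2, which fell, and FADS3, which rose. CCACG stood before 22 of the 40, or 55%, against 37.5% of the table and 51.9% of tested genes. A match is a run of letters, not a measured site. Of the 65 starts read, 46 were followed by 30 bases found in a GENCODE 29 transcript of the gene.

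The listed genes of enzymes that build the chain fell as a group, with 4 of 5 lower and none higher. Their summed level was 183.8, 184.8 and 186.6 FPKM after GK921 against 321.7, 323.0 and 327.1 FPKM in DMSO. FASN (chr17:82078333-82098332, minus strand, GRCh38), the synthase that assembles palmitate, was at 65.6, 63.8 and 62.7 FPKM after GK921 and at 141, 143 and 139 FPKM in DMSO. The groups were far apart, with a spread within each of only a few FPKM. That made FASN 2.20-fold lower, with a log2 change of -1.13 ± 0.035 (limma adjusted p = 9.58e-09). ACACA encodes acetyl-CoA carboxylase 1, whose malonyl-CoA feeds the synthase. Its level was 12.04, 12.5 and 12.2 FPKM after GK921 and 24.6, 25.6 and 25.8 FPKM in DMSO, 2.06-fold lower (log2 change -0.99 ± 0.056, limma adjusted p = 4.13e-07). Every GK921 library was below every DMSO library. ACLY, which splits citrate into acetyl-CoA, fell less, 1.52-fold to 87.1 ± 2.81 FPKM after GK921, against 132 ± 3.89 FPKM in DMSO (log2 change -0.60). ACSS2, which makes acetyl-CoA from acetate, fell 1.19-fold to 18.2 ± 0.246 FPKM, against 21.8 ± 0.451 FPKM in DMSO (log2 change -0.24).

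ACACB, the second carboxylase, sits at the mitochondrion, where its malonyl-CoA restrains fatty acid oxidation. It was at 3.17, 3.69 and 3.40 FPKM after GK921 and at 3.36, 3.87 and 3.53 FPKM in DMSO. These groups overlapped and the change was not called (log2 change -0.05 ± 0.105, limma adjusted p = 0.658). Per length, ACACA made up 78.2% ± 0.962 of the summed carboxylase level after GK921 and 87.6% ± 0.648 in DMSO. With quantile normalization ACACB was called lower (log2 change -0.30).

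The desaturases split, and the split ran through a single gene cluster. FADS1 (chr11:61799625-61829318, minus strand), FADS2 (chr11:61792980-61867354, plus strand) and FADS3 (chr11:61873519-61892051, minus strand) lie close together in GRCh38. In GENCODE 29 the span of FADS1 lies within that of FADS2, and 6164 bases separate FADS2 from FADS3. The RefSeq starts of FADS1 and FADS2 are 599 to 800 bases apart, on opposite strands. FADS1 and FADS2 encode the delta-5 and delta-6 desaturases that turn dietary linoleic and linolenic acid into polyunsaturated fatty acids, and FADS3 acts on sphingoid bases. FADS2 was at 28.01, 26.6 and 26.2 FPKM after GK921 and at 67.6, 73.5 and 68.6 FPKM in DMSO, 2.59-fold lower (log2 change -1.34 ± 0.050, limma adjusted p = 2.93e-08). FADS3 was at 63.8, 66.1 and 63.8 FPKM after GK921 and at 16.98, 17.1 and 16.9 FPKM in DMSO, 3.80-fold higher (log2 change 1.87 ± 0.044, limma adjusted p = 2.23e-09). FADS1 was at 54.9, 56.6 and 55.3 FPKM after GK921 and at 44.9, 40.0 and 44.1 FPKM in DMSO, 1.29-fold higher (log2 change 0.36 ± 0.052). None of the 3 genes had overlapping groups.

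As a share of the summed FADS level, FADS2 made up 18.3% ± 0.682 after GK921 and 53.8% ± 2.18 in DMSO. FADS3 made up 43.9% ± 0.384 after GK921 and 13.1% ± 0.0530 in DMSO. The most abundant gene of the cluster was thus FADS3 in all 3 GK921 libraries and FADS2 in all 3 DMSO libraries, while their sum differed by 1.13-fold (147 ± 1.98 FPKM after GK921, 129.9 ± 0.654 FPKM in DMSO), or 1.01-fold with median-ratio scaling. Exons of FADS1 and FADS2 overlap in GENCODE 29, and exons of FADS2 overlap those of FEN1, a flap endonuclease of DNA replication. FEN1 itself was at 40.3 ± 2.81 FPKM after GK921 and 119 ± 0.764 FPKM in DMSO. Whether its reads were counted for FADS2 was not tested.

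SCD, the desaturase that makes oleate from stearate, was the most abundant lipid gene in DMSO. It was at 227, 246 and 246 FPKM after GK921 and at 302, 304 and 296 FPKM in DMSO, 1.25-fold lower (log2 change -0.33 ± 0.037, limma adjusted p = 3.88e-05). Its groups did not overlap, though the fall was small beside that of FASN. Its paralog SCD5 was listed at 0 in all 6 libraries.

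Among the elongases, ELOVL6, which extends palmitate to stearate, fell 1.55-fold to 26.7 ± 4.05 FPKM after GK921, against 41.5 ± 0.840 FPKM in DMSO (log2 change -0.63 ± 0.098, limma adjusted p = 0.000321). The first GK921 library was the lowest, at 22.1 FPKM, with the others at 28.9 and 29.3 FPKM. ELOVL7, an elongase of longer saturated chains, was at 11.1, 8.65 and 8.93 FPKM after GK921 and at 4.17, 3.35 and 3.51 FPKM in DMSO. That is 2.60-fold higher with separate groups (log2 change 1.17 ± 0.118, limma adjusted p = 1.80e-05). ELOVL5, which extends polyunsaturated chains, fell by 0.13 on the log2 scale, and ELOVL1, the most abundant of the family, was at 156, 161 and 146 FPKM after GK921 and 159, 151 and 154 FPKM in DMSO (limma adjusted p = 0.894). With median-ratio scaling ELOVL1 was called lower (log2 change -0.17).

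SREBF1, whose protein drives transcription of most of the synthetic genes above, was at 20.7, 20.4 and 20.1 FPKM after GK921 and at 27.5, 28.5 and 28.3 FPKM in DMSO. It was 1.38-fold lower with separate groups (log2 change -0.44 ± 0.050, limma adjusted p = 3.74e-05). FPKM per gene does not separate its SREBP-1a and SREBP-1c transcripts, nor does it measure the cleaved, active protein. MLXIPL was at 0.58, 0.54 and 0.55 FPKM after GK921 and at 0.59, 0.60 and 0.78 FPKM in DMSO, below the limit for testing.

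**Figure D2:**
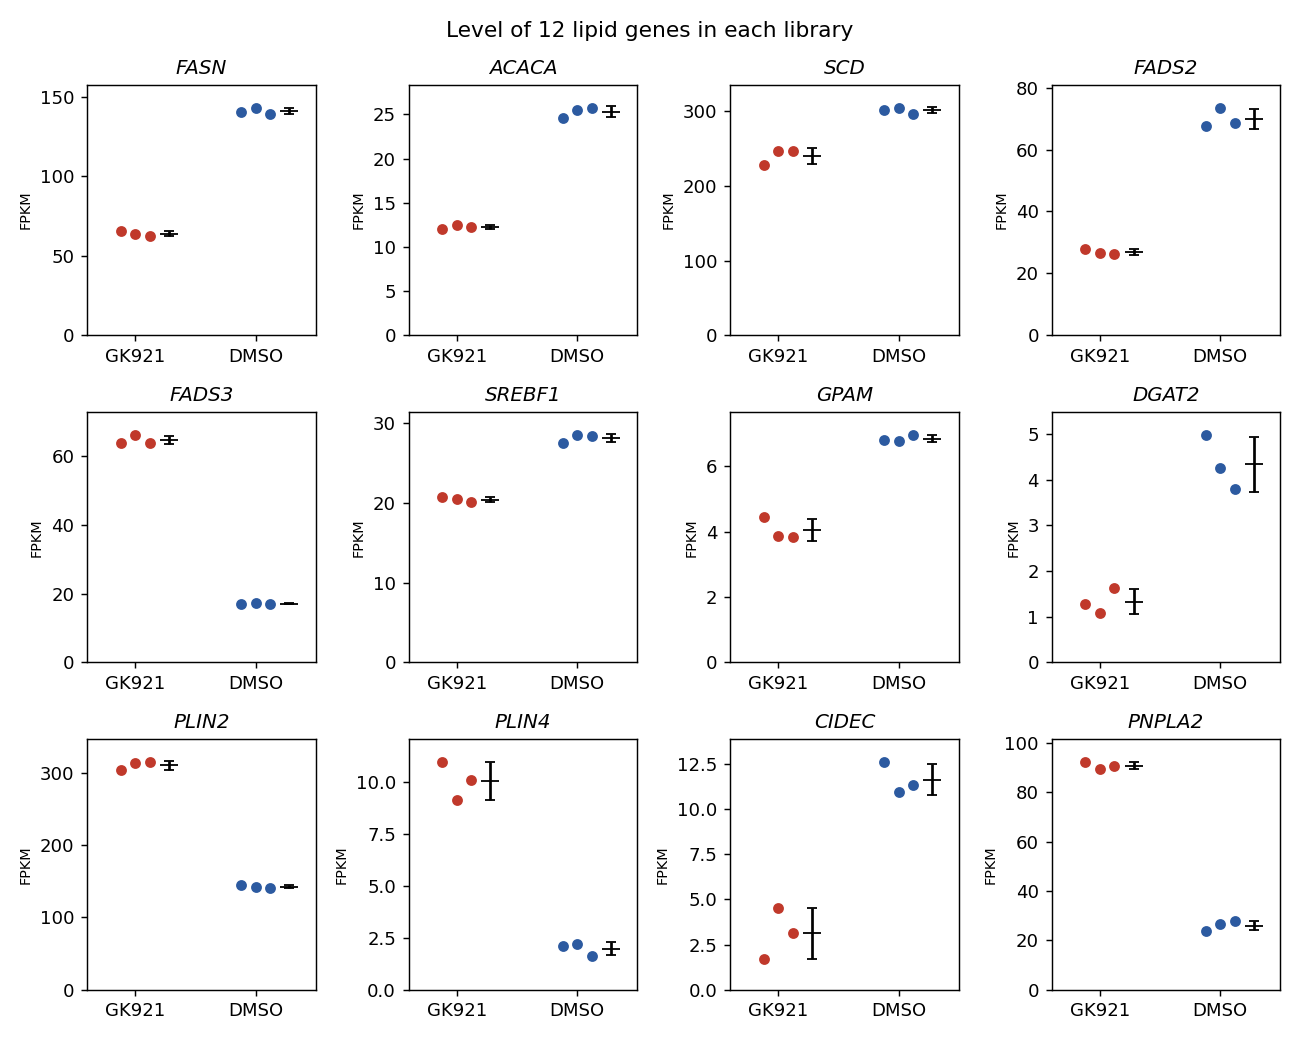
FPKM of 12 genes in each library (points), with the mean and SD beside them in black, GK921 on the left and DMSO on the right of each panel, each axis starting at 0. In none of the 12 panels do the groups overlap, and FADS3, PLIN2, PLIN4 and PNPLA2 are the ones higher after GK921.

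Listed genes that activate or carry fatty acids mostly fell, with 4 of 5 tested lower and none higher. Outside the list such genes went both ways: FABP3 rose 3.55-fold and DBI fell 1.57-fold. ACSL5, an acyl-CoA synthetase of the endoplasmic reticulum and mitochondria, was at 19.6, 21.2 and 20.6 FPKM after GK921 and at 48.4, 44.5 and 49.4 FPKM in DMSO. Its fall was 2.32-fold (log2 change -1.17 ± 0.058, limma adjusted p = 1.65e-07), with no overlap. ACSL4, which prefers arachidonic acid and is known for its part in ferroptosis, fell 1.45-fold to 31.5 ± 1.36 FPKM, against 45.7 ± 0.791 FPKM in DMSO. ACSL1 fell 1.21-fold. ACSL3, the synthetase found on nascent droplets, was at 100.3, 102 and 100.2 FPKM after GK921 and at 102, 98.97 and 102 FPKM in DMSO, with overlapping groups and no call (limma adjusted p = 0.904). The SE of its log2 change was 0.033. With median-ratio scaling ACSL3 was called lower (log2 change -0.17). As a share of the family, ACSL3 was at 51.0% ± 0.525 after GK921 and 40.7% ± 0.160 in DMSO, and ACSL5 at 10.4% ± 0.396 after GK921 and 19.1% ± 0.653 in DMSO.

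FABP5, a cytosolic fatty acid binding protein often abundant in tumours, had the highest mean of these listed genes in both groups. It was at 112, 101 and 109 FPKM after GK921 and at 148, 148 and 152 FPKM in DMSO, 1.39-fold lower (log2 change -0.47 ± 0.043, limma adjusted p = 9.52e-06). GENCODE 29 holds 14 pseudogenes named after FABP5, which may share its reads. FABP1, the binding protein of normal hepatocytes, was listed at 0 in all libraries.

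Among the listed genes, triglyceride assembly fell at its first 2 steps and at DGAT2, and not at the lipins between them. Of 12 tested genes, 8 were lower, 2 higher and 2 not called. The 3 listed acyltransferases that start the path from glycerol 3-phosphate all fell. GPAM, the mitochondrial one and a target of SREBP-1, was at 4.44, 3.86 and 3.84 FPKM after GK921 and at 6.79, 6.78 and 6.96 FPKM in DMSO, 1.69-fold lower (log2 change -0.64 ± 0.091, limma adjusted p = 0.000181). GPAT3, the most abundant of the 3, was at 50.9, 48.9 and 54.1 FPKM after GK921 and at 84.05, 81.0 and 82.6 FPKM in DMSO, 1.61-fold lower (log2 change -0.68). GPAT4 fell 1.37-fold. The groups were separate for all 3 genes.

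All 4 listed AGPAT genes, whose enzymes add the second acyl chain to make phosphatidic acid, were lower. AGPAT4, outside the list, rose 2.22-fold to 8.42 ± 0.635 FPKM, against 3.80 ± 0.208 FPKM in DMSO (limma adjusted p = 1.20e-05). AGPAT5 and AGPAT3 fell 1.86-fold and 1.52-fold, with log2 changes of -0.87 ± 0.077 and -0.57 ± 0.059. AGPAT2, whose loss causes congenital lipodystrophy, was the most abundant gene of triglyceride assembly. It was at 98.97, 93.8 and 85.7 FPKM after GK921 and at 108, 109 and 101 FPKM in DMSO, a 1.14-fold fall with narrowly separate groups (log2 change -0.19 ± 0.056, limma adjusted p = 0.0116). AGPAT1 fell 1.23-fold.

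The lipins, phosphatases that turn phosphatidic acid into diglyceride, went the other way. LPIN2 rose 1.38-fold to 49.3 ± 1.84 FPKM, against 35.8 ± 0.824 FPKM in DMSO (log2 change 0.45 ± 0.046, limma adjusted p = 2.19e-05). LPIN3 was at 8.43, 7.63 and 9.28 FPKM after GK921 and at 6.50, 6.46 and 6.61 FPKM in DMSO (log2 change 0.32), a rise that was not called with median-ratio or quantile scaling (limma adjusted p = 0.0942 and 0.207). LPIN1 was at 6.70 ± 0.381 FPKM after GK921 and 5.77 ± 0.240 FPKM in DMSO and was not called (limma adjusted p = 0.0746), although its groups did not overlap.

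DGAT1 and DGAT2 encode unrelated enzymes for the last step, from diglyceride to triglyceride. DGAT2, the one tied to newly made fatty acids, was at 1.28, 1.09 and 1.63 FPKM after GK921 and at 4.98, 4.25 and 3.79 FPKM in DMSO. It was 3.25-fold lower at low levels, with separate groups (log2 change -1.20 ± 0.139, limma adjusted p = 4.82e-05). DGAT1 was at 12.8, 13.0 and 15.4 FPKM after GK921 and at 16.0, 13.2 and 16.3 FPKM in DMSO, with overlap and no call (limma adjusted p = 0.246). With median-ratio or quantile scaling DGAT1 was called lower (log2 change -0.29 and -0.30). DGAT1 made up 91.2% ± 0.968 of the pair after GK921 and 77.7% ± 3.03 in DMSO.

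Droplet genes moved in both directions, the perilipins up and the CIDE genes down. Of 8 tested, 4 were higher, 3 lower and 1 not called, or 3 higher and 4 lower with median-ratio scaling. On the deposited scale 57.1% of these calls were rises, close to the 61.6% over all tested genes. PLIN2 (chr9:19108375-19149290, minus strand), the perilipin that coats droplets of most non-adipose cells and is stabilised by them, was at 303, 313 and 315 FPKM after GK921 and at 145, 142 and 140.4 FPKM in DMSO. That is 2.18-fold higher (log2 change 1.12 ± 0.029, limma adjusted p = 3.80e-09), and PLIN2 took the place of SCD as the most abundant of the 50 genes in every GK921 library. PLIN4, which coats small droplets and is best known from fat and muscle, was at 10.97, 9.15 and 10.1 FPKM after GK921 and at 2.12, 2.19 and 1.62 FPKM in DMSO. It rose 5.09-fold, the largest ratio among the called genes here (log2 change 1.90 ± 0.115, limma adjusted p = 6.50e-07). PLIN4 lies on chromosome 19 with PLIN5 and PLIN3, and its exons overlap in GENCODE 29 with those of HDGFL2, which was at 28.8 ± 1.11 FPKM after GK921 and 22.7 ± 0.981 FPKM in DMSO.

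PLIN3, a perilipin that moves between cytosol and droplet, was at 74.0, 75.5 and 73.8 FPKM after GK921 and at 59.0, 64.1 and 62.1 FPKM in DMSO. Its rise of 0.27 on the log2 scale lost its call with median-ratio scaling (limma adjusted p = 0.0540). PLIN1 and PLIN5, the perilipins of adipocytes and of oxidative tissue, reached at most 0.29 and 0.14 FPKM in any library. Of the summed perilipin level, PLIN2 held 78.6% ± 0.434 after GK921 and 69.0% ± 1.04 in DMSO, and PLIN3 held 18.8% ± 0.299 after GK921 and 29.9% ± 1.12 in DMSO.

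CIDEC and CIDEB encode proteins that fuse droplets, CIDEB also acting in lipoprotein loading in hepatocytes. CIDEC was at 1.70, 4.54 and 3.14 FPKM after GK921 and at 12.6, 10.9 and 11.4 FPKM in DMSO. The GK921 libraries differed widely among themselves but all lay below DMSO, at a 3.72-fold lower mean (log2 change -1.67 ± 0.223, limma adjusted p = 0.000118). Leaving out a library moved that change between -1.92 and -1.40, and the call held in each case. Of the adipocyte markers, ADIPOQ, LEP, LPL and FABP4 were listed at 0 in all libraries, and CIDEC was the 1 of 6 that reached 1 FPKM. CIDEB fell 1.79-fold to 20.3 ± 2.20 FPKM, against 36.5 ± 1.17 FPKM in DMSO (log2 change -0.82). Its exons overlap in GENCODE 29 with those of NOP9, which was at 9.50 ± 1.28 FPKM after GK921 and 15.5 ± 0.176 FPKM in DMSO, and the part of its reads was not tested.

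The genes of droplet birth were also divided. BSCL2, which encodes seipin, the protein at the neck between endoplasmic reticulum and droplet, rose 1.48-fold to 29.9 ± 1.41 FPKM, against 20.2 ± 0.516 FPKM in DMSO (log2 change 0.55 ± 0.056, limma adjusted p = 1.99e-05). FITM2, needed for droplets to bud, was at 10.4, 6.32 and 8.19 FPKM after GK921 and at 14.8, 15.8 and 15.6 FPKM in DMSO (log2 change -0.84 ± 0.142, limma adjusted p = 0.000546). HILPDA, a hypoxia-induced droplet protein that inhibits the lipase ATGL, was at 33.4, 37.0 and 32.2 FPKM after GK921 and at 41.8, 43.5 and 32.8 FPKM in DMSO. It was not called (limma adjusted p = 0.120). HILPDA was called lower with median-ratio scaling (log2 change -0.35), with quantile normalization (log2 change -0.29), and without the third DMSO library, its lowest in that group (log2 change -0.31, limma adjusted p = 0.00415).

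**Figure D3:**
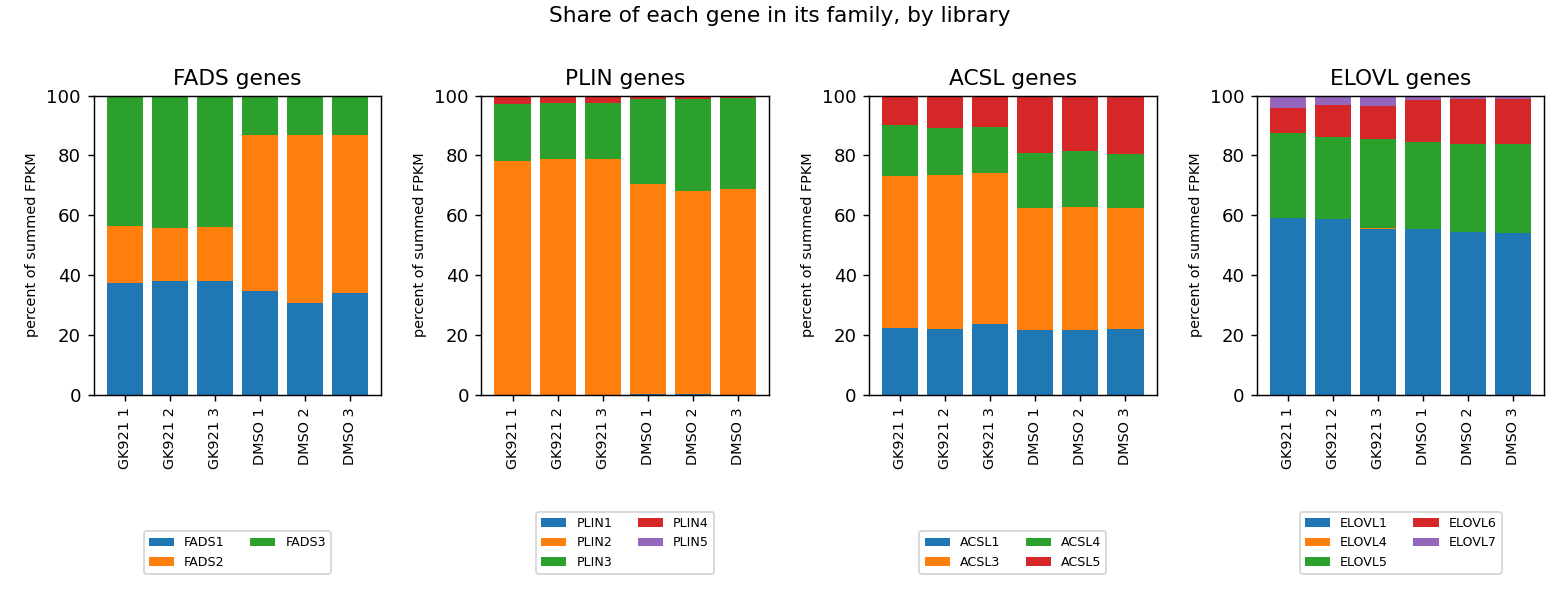
Share of each gene in the summed FPKM of its family, in percent, for the FADS, PLIN, ACSL and ELOVL genes, with the 3 GK921 libraries on the left and the 3 DMSO libraries on the right. FADS3 takes 43.5% to 44.3% of its family after GK921 and 13.0% to 13.1% in DMSO, and PLIN2 and ACSL3 take larger shares after GK921.

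Shares within a family do not change with a single factor per library, as in median-ratio scaling, but can change with quantile normalization. In all, 29 shares were compared. Of the 11 families, SCD and FABP gave none, as SCD5 and FABP1 were listed at 0 in every library. For 22 of the 29 shares the groups did not overlap. The exact two-sided permutation test gave each of those 22 a p of 0.1, the smallest that 3 against 3 allow, or 0.132 after Benjamini-Hochberg adjustment, so no share could pass 0.05 in this design. ELOVL5, GPAM, AGPAT1 and LPIN3 had shares with overlapping groups, as did the near-silent ELOVL4, PLIN1 and PLIN5.

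All 3 tested lipases of the list rose. Their summed level, with LIPE, was 158.5, 148.0 and 156.3 FPKM after GK921 and 65.3, 64.5 and 64.4 FPKM in DMSO. Lipase and esterase genes outside the list went both ways: CES1, AADAC and DDHD2 fell, and LIPA and CES2 rose. PNPLA2 (chr11:818902-825573, plus strand) encodes ATGL, which removes the first fatty acid from triglyceride. It was at 92.2, 89.5 and 90.6 FPKM after GK921 and at 23.8, 26.5 and 27.7 FPKM in DMSO, 3.49-fold higher (log2 change 1.77 ± 0.058, limma adjusted p = 1.33e-08). The gap between the groups was many times the spread within either. MGLL, which cleaves the last fatty acid from monoglyceride, rose 1.63-fold to 58.8 ± 4.12 FPKM, against 36.1 ± 2.09 FPKM in DMSO (log2 change 0.69 ± 0.064). PNPLA3, a lipase-like droplet protein whose common variant is tied to fatty liver, was at 4.50, 4.40 and 5.19 FPKM after GK921 and at 3.06, 2.22 and 2.34 FPKM in DMSO (log2 change 0.69 ± 0.125, limma adjusted p = 0.000849). Exons of PNPLA3 overlap in GENCODE 29 with those of SAMM50, which moved the other way, to 29.8 ± 1.49 FPKM after GK921, against 45.8 ± 1.96 FPKM in DMSO. LIPE, which encodes the hormone-sensitive lipase of fat tissue, stayed at or under 0.08 FPKM in every library.

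Proteins that work with these lipases and droplets were looked up in a further list of 30 genes. Of 17 tested, 8 were higher and 6 lower (7 and 8 with median-ratio scaling), with a median log2 change of 0.11. Rises were 57.1% of the calls in that list, close to the 61.6% over all tested genes. G0S2, an inhibitor of ATGL, was at 233, 223 and 226 FPKM after GK921 and at 25.7, 35.1 and 28.6 FPKM in DMSO, 7.62-fold higher (log2 change 2.90, limma adjusted p = 1.21e-08). ABHD5, the activator of ATGL, rose 2.42-fold to 74.7 ± 2.81 FPKM, against 30.8 ± 1.98 FPKM in DMSO. The genes of ATGL, its activator and its inhibitor thus rose together, that of the inhibitor most in ratio. TMEM159, the seipin partner also called promethin, rose 2.13-fold. Falls were seen for AADAC, an esterase of the hepatocyte endoplasmic reticulum (4.59-fold, to 1.56 ± 0.381 FPKM, against 7.17 ± 1.42 FPKM in DMSO), for the carboxylesterase gene CES1 (1.65-fold) and for the phospholipase gene DDHD2 (1.36-fold).

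Genes for the supply of citrate and NADPH mostly fell, as did those of the synthetic enzymes. Of 12 tested genes 10 were lower and 2 higher, also under both rescalings, with a median log2 change of -0.67. Neither citrate nor NADPH was measured here. SLC25A1, the carrier that exports citrate from mitochondria, was at 37.2, 36.6 and 36.9 FPKM after GK921 and at 109, 98.1 and 97.2 FPKM in DMSO, 2.75-fold lower (log2 change -1.43, limma adjusted p = 2.02e-08). CS, which encodes citrate synthase, fell 1.92-fold to 139.6 ± 2.15 FPKM, against 268 ± 0.642 FPKM in DMSO. The 2 genes that rose encode enzymes that make NADPH. The cytosolic isocitrate dehydrogenase gene IDH1 rose 1.91-fold to 359.9 ± 6.01 FPKM, against 188 ± 5.18 FPKM in DMSO, and the mitochondrial malic enzyme gene ME3 rose 2.31-fold.

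Of 15 genes that control SREBP and LXR, 7 were lower, 5 higher and 3 not called (median log2 change -0.16). Rises were 41.7% of these calls, against 61.6% over all tested genes. INSIG1, which holds SREBP precursors in the endoplasmic reticulum and is itself an SREBP target, was at 57.7, 55.7 and 49.5 FPKM after GK921 and at 19.96, 21.5 and 23.9 FPKM in DMSO, 2.49-fold higher (log2 change 1.28, limma adjusted p = 7.22e-07). SCAP, the escort that carries the precursors to the Golgi, fell 1.23-fold (log2 change -0.28). The ubiquitin ligase gene RNF139 rose 1.69-fold. The sterol receptors LXR-beta and LXR-alpha split, with NR1H2 up 1.42-fold and NR1H3 down 1.56-fold, and TRIB1 fell 1.57-fold. A list of cofactors and other regulators of lipogenesis held 12 tested genes, 4 higher and 3 lower (3 and 6 with median-ratio scaling). Its share of rises among calls, 57.1%, was close to the 61.6% over all tested genes. In that list XBP1, a factor of the unfolded protein response that also drives hepatic lipogenesis in mice, rose 2.60-fold to 389 ± 10.00 FPKM, against 149 ± 7.25 FPKM in DMSO. CEBPB rose 2.46-fold and PPARA, the receptor that drives fatty acid oxidation, 1.61-fold, while the AMPK subunit genes PRKAA2 and PRKAA1 fell 1.46-fold and 1.23-fold and USF2 fell 1.20-fold.

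**Figure D4:**
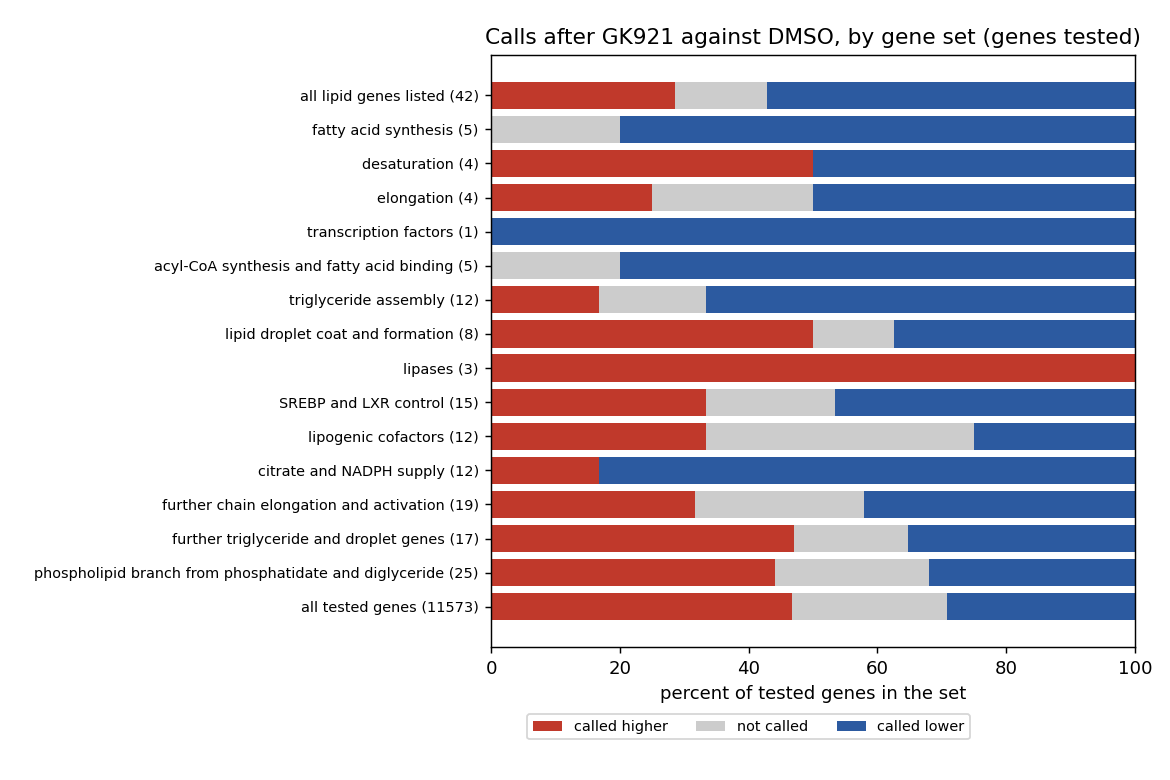
Percent of tested genes called higher, not called and called lower after GK921 in each role, in the further lists and in all tested genes, with the number tested in brackets. Bars for fatty acid synthesis, triglyceride assembly and citrate and NADPH supply are mostly lower, and the bar for lipases is all higher.

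Of 19 further tested genes of elongation, activation and binding, 6 were higher and 8 lower (2 and 10 with median-ratio scaling; median log2 change 0.01). Rises were 42.9% of these calls, against 61.6% over all tested genes. The muscle-type binding protein gene FABP3 was at 57.9 ± 5.65 FPKM after GK921 and at 16.3 ± 1.33 FPKM in DMSO, 3.55-fold higher (log2 change 1.76, limma adjusted p = 1.23e-07), opposite to FABP5. ACSF2 and ACSS1, mitochondrial acyl-CoA and acetyl-CoA synthetases, rose 1.61-fold and 1.17-fold. MECR, of mitochondrial fatty acid synthesis, fell 2.41-fold, the acyl-CoA binding protein gene DBI fell 1.57-fold to 124 ± 1.13 FPKM, against 195 ± 0.897 FPKM in DMSO, and the elongation dehydratase gene HACD3 fell 1.58-fold. In the phospholipid branch, which draws on the same phosphatidic acid and diglyceride, 11 of 25 tested genes were higher and 8 lower (8 and 11 with median-ratio scaling; median log2 change 0.05). The share of rises among these calls, 57.9%, was close to the 61.6% over all tested genes. LPCAT1, which reacylates lysophosphatidylcholine, fell 3.51-fold to 47.8 ± 2.02 FPKM, against 168 ± 4.38 FPKM in DMSO, and MBOAT7 and LPCAT2, other lysophospholipid acyltransferase genes, fell 2.24-fold and 1.78-fold. PISD, which makes phosphatidylethanolamine in mitochondria, rose 2.87-fold, MBOAT1 2.85-fold and the choline kinase gene CHKA 1.73-fold.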

How the data were processed

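Per the submitters' processing notes, FastQC 0.11.5, HISAT2, featureCounts and edgeR were used with the build hg38. The sources used here do not give the role of each tool, the gene annotation, the strand setting or the library type. The authors deposited FPKM values per gene symbol and library with 2 decimals. Groups came from the sample titles.

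The deposited FPKM were used unchanged and put on the log2(FPKM + 1) scale. Genes averaging 1 FPKM or more across the 6 libraries entered a limma 3.58.1 fit (R 4.3.3). Treatment was the only term, with empirical Bayes moderation, an intensity trend and Benjamini-Hochberg adjustment over 11573 genes. A gene with an adjusted p under 0.05 was called. The pseudocount makes log2 changes of low genes smaller than their ratios, and folds are ratios of mean FPKM. The procedure was tested on simulated data. Family shares are percentages of summed FPKM and were compared by exact permutation. Relative depth came from 15 pairs of libraries (largest residual from 1 common solution 0.00667 on the log2 scale). No pair of one group had the same value for more than 0.389% of tested genes, so no file was a copy of another. That does not tell separate cultures from repeat libraries of 1 RNA. Full values are given for genes changed by at least 1 log2 unit, rate-setting genes and the most abundant gene of each role. From the further lists, up to 3 called genes per direction are named if their higher group averaged 5 FPKM or more, so some average less in the other group. AGPAT4, LIPA and CES2 are named besides. Some genes that met these rules are not reported here. The members, lists and tests were chosen with earlier results of these data known. Positions come from GENCODE 29 (GRCh38), in which exons of 24 of the 50 genes overlap another gene, so those values are uncertain while strand handling is not given. Other settings tried were 2 pseudocounts, 2 expression limits, 2 rescalings, a fit with no trend, the replicate number as a block, and each library left out in turn.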

Additional observations from a re-analysis of the deposited data

How the results depend on the processing

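The counts of 24 lower and 12 higher lipid genes moved within 23 to 28 and 10 to 13 over 14 alternatives, and without 1 library within 24 to 25 and at 12. The count of all called genes lay between 7625 and 9181. The median log2 change of the lipid genes was -0.42 with median-ratio scaling, -0.33 with quantile normalization and -0.19 with no filter on low values, against -0.25 as reported. The replicate number as a block left 12 higher and 25 lower, the added call being HILPDA. Deviations of same-numbered libraries correlated at only 0.0305, 0.0473 and -0.0021, so little shared deviation was seen. That does not tell whether same-numbered cultures were handled as pairs. Signs turned for small uncalled changes. ELOVL1 was at 0.0013 with quantile normalization and between -0.036 and 0.033 with 1 library left out, ACSL3 between -0.020 and 0.0038 with 1 library left out, and LPIN1 at -0.020 with quantile normalization. The difference in share (GK921 minus DMSO) lay between -0.094 and 0.028 percentage points for ELOVL4 and between -1.02 and 0.322 for LPIN3 with 1 library left out. LPIN1 was called higher with no intensity trend (limma adjusted p = 0.0215). The causes were not tested. Depth is known only in relative terms, and values near 0, such as those of PLIN1, PLIN5 and LIPE, rest on few reads.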
